A study of Arabidopsis thaliana with 4 samples.

Results

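The 6 genes described here are the iron-status genes IMA1, IMA2 and IMA3 and the ligase genes BTS, BTSL1 and BTSL2, 6 of the 32678 loci in the deposited table of Arabidopsis thaliana. They were picked by locus identifier with their difference between the genotypes already known, so that difference is given as a description and no test is drawn from it. RNA was sequenced from whole plants of the genotype 35S:TEM1, which overexpresses the transcription factor gene TEM1 from the 35S promoter of cauliflower mosaic virus, a promoter active in most plant tissues, and from WT plants. Each genotype had 2 samples, and each sample pooled 20 plants aged 10 days, grown in LD at 22 °C and taken at ZT18. The labels do not name separate lines, growth rounds or batches, so errors cover only the spread between these pools. In whole plants, fewer cells of a type and less RNA per cell cannot be told apart.

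IMA (IRON MAN) peptides are short, acidic peptides whose genes are known to be switched on when iron is scarce, and they promote iron uptake. BTS (BRUTUS) and its relatives BTSL1 and BTSL2 are RING-type E3 ubiquitin ligases with hemerythrin domains, which bind iron. They mark iron-response bHLH transcription factors for degradation. IMA peptides carry a conserved end that binds these ligases and so competes with the bHLH factors. Transcripts of the ligases are known to accumulate in iron deficiency as well.

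TEM1 (AT1G25560) had 784 and 827 RPKM in 35S:TEM1 replicates 1 and 2, against 16.3 and 30.3 RPKM in WT replicates 1 and 2, in accord with the labels. RPKM is reads scaled by gene length and by the size of the library. The library totals behind the values, recovered from the table with the help of reference gene lengths, were 20183817 and 27807143 reads for 35S:TEM1 and 30425737 and 24140725 reads for WT. Of 17746 genes with a mean RPKM of at least 1, 3255 were called higher and 1308 lower in 35S:TEM1 by limma at an adjusted p under 0.05, against 1884 higher and 2388 lower with the samples set to equal medians, and 2021 higher and 1862 lower after quantile normalization. The median log2 fold change of all genes was 0.12, and -0.03 once the samples were set to equal medians.

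All 6 genes had both 35S:TEM1 samples above both WT samples, as did 47.4% of all genes tested, while 20.7% had both below. All 6 also lay past the higher threshold of the fit, against a background of 18.3% of genes called higher, 7.37% called lower and 25.7% in either direction, and since this contrast was known when they were picked, nothing is read from that count. IMA1, IMA2, IMA3 and BTS had a log2 fold change of at least 1, as did 3.82% of genes tested, and IMA2 and IMA3 one of at least 2, as did 0.456%. BTSL1 reached the expression limit only through 35S:TEM1, because its WT values lay under 1 RPKM. The differences ran over a wide range, with IMA2 and IMA3 at the top and BTSL2 at the bottom.

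IMA1 (AT1G47400) and IMA2 (AT1G47395) lie side by side on the same strand of chromosome 1, with 1876 bases between them in the RefSeq annotation of TAIR10.1. Each has 1 exon and a coding sequence of 153 bases, and 88.9% of those bases are the same. IMA3 (AT2G30766) lies on chromosome 2, has 144 coding bases and shares 49.4% and 50.6% of aligned coding bases with IMA1 and IMA2. The last 51 coding bases, stop codon included, are shown because this end of the peptide carries the conserved stretch. Capitals mark bases that are not the same in all 3 genes. They stand, 5′ to 3′, at chr1:17385920-17385970, chr1:17383219-17383269 and chr2:13108161-13108211 of TAIR10.1, all on the plus strand.
IMA1: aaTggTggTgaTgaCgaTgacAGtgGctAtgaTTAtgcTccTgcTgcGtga
IMA2: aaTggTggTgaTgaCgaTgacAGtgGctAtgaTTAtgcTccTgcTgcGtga
IMA3: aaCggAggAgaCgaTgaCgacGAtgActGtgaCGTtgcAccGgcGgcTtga
IMA1 and IMA2 have 0 differences in this stretch, and 34 of the 51 bases are shared by all 3. Of the 17 bases that are not shared, 11 stand at the last position of a codon. Because the IMA1 and IMA2 exons have 10 windows of 50 bases in common, some reads could come from either gene, and how such reads were assigned is not given in the sources used here. IMA3 shares no such window with either.

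IMA2 was the most abundant of the 6 genes in 35S:TEM1. It had 167 RPKM in both 35S:TEM1 samples, against 22.1 and 20.8 RPKM in WT replicates 1 and 2. The group means were 167 ± 0.0532 RPKM in 35S:TEM1 and 21.4 ± 0.933 RPKM in WT (SD, n = 2 each), a 7.80-fold difference of the means. On the log2(RPKM + 1) scale, used for every log2 fold change unless another is named, the difference was 2.91 ± 0.08 (SE), and only 0.113% of genes tested were at or above it. The values rest on 1265 and 1742 reads in 35S:TEM1 and on 252 and 188 reads in WT, the smallest whole numbers that the RPKM values allow.

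IMA3 was second. It had 99.3 and 90.6 RPKM in 35S:TEM1, against 20.9 and 18.1 RPKM in WT. The means of 95.0 ± 6.20 RPKM in 35S:TEM1 and 19.5 ± 2.01 RPKM in WT (SD, n = 2 each) differed 4.87-fold, with a log2 fold change of 2.23 ± 0.10. In the reference the IMA3 span overlaps 2 genes on the opposite strand, AT2G30760 of unknown function and the cytochrome P450 gene CYP71A13 (AT2G30770), which share 78 and 330 exon bases with it. CYP71A13 had 2.73 and 2.18 RPKM in 35S:TEM1 and 0.644 and 0.432 RPKM in WT. AT2G30760 had 0.888 and 1.29 RPKM in 35S:TEM1 and 0.589 and 0.445 RPKM in WT. Both neighbours stayed at levels far under that of IMA3 in every sample. Strand handling is not given in the sources used here, and the part of the shared bases in the values of these genes was not tested.

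IMA1 was the least abundant IMA gene in every sample. It had 24.1 and 24.3 RPKM in 35S:TEM1, against 11.6 and 6.70 RPKM in WT. The means of 24.2 ± 0.0816 RPKM in 35S:TEM1 and 9.15 ± 3.47 RPKM in WT (SD, n = 2 each) differed 2.64-fold, with a log2 fold change of 1.35 ± 0.22. IMA1 had the largest SE of the 6 genes, and its spread came from WT, where replicate 1 stood 1.73-fold above replicate 2 (95% exact binomial interval 1.31 to 2.30, from 166 and 76 reads). That interval compares 2 libraries and covers counting error only. The adjacent gene IMA2 had 1.06-fold in the same comparison of the WT libraries (interval 0.877 to 1.29). The lengths behind the RPKM of IMA2 and IMA3, 375 and 600 bases, lie so far under their reference exon lengths of 833 and 1995 bases that a larger common factor of their reads is possible, and it would narrow their intervals. In 35S:TEM1 the 2 samples did not differ beyond counting error, at a ratio of replicate 1 to replicate 2 of 0.995 for IMA1 (0.836 to 1.18) and 1.0 for IMA2 (0.930 to 1.08).

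**Figure D1:**
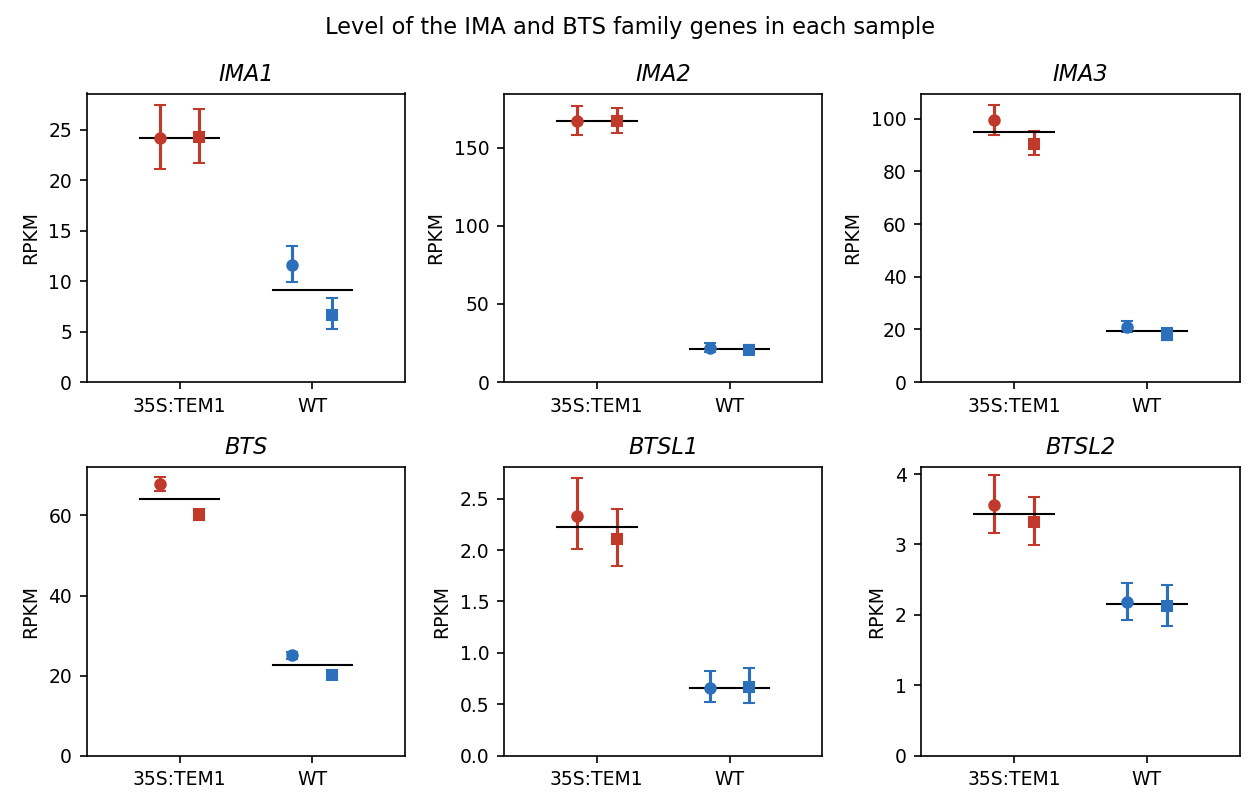
RPKM of each gene in each sample, 35S:TEM1 at left and WT at right, with circles for replicate 1, squares for replicate 2, black lines for group means and bars for 95% exact Poisson intervals of the reads. Both 35S:TEM1 samples stand above both WT samples in all 6 panels, and the WT replicates of IMA1, 11.6 and 6.70 RPKM, lie apart by more than their intervals.

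The make-up of the IMA transcripts in each sample is given as a description. Summed over the 3 genes, the level was 291 and 282 RPKM in 35S:TEM1, against 54.6 and 45.6 RPKM in WT. IMA2 made up 57.5% and 59.3% of that sum in the 35S:TEM1 samples, against 40.4% and 45.6% of it in WT. IMA1 made up 8.31% and 8.61% of it in 35S:TEM1, against 21.3% and 14.7% of it in WT. IMA3 held 34.2% and 32.1% of it in 35S:TEM1, against 38.3% and 39.7% of it in WT. The shares of the genotypes did not overlap for any of the 3. The 3 shares make up the whole sum, so they are not separate results. On levels of single genes, 47.4% of all genes tested had both 35S:TEM1 samples above both WT samples, and 20.7% had both below. No such background was computed for shares of a sum. The genes were picked with this contrast known, so nothing is read from the separation. Some reads could come from either IMA1 or IMA2, so the split between them also depends on how such reads were assigned. Between the adjacent genes, IMA2 stood 6.92-fold and 6.89-fold above IMA1 in 35S:TEM1 and 1.90-fold and 3.10-fold above it in WT.

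BTS (AT3G18290, chromosome 3, 14 exons) is the ligase known to act in the root stele and in the embryo. It had 67.9 and 60.1 RPKM in 35S:TEM1, against 25.1 and 20.2 RPKM in WT. The means of 64.0 ± 5.46 RPKM in 35S:TEM1 and 22.6 ± 3.46 RPKM in WT (SD, n = 2 each) differed 2.83-fold, with a log2 fold change of 1.47 ± 0.12. With 6045 and 7381 reads in 35S:TEM1 and 3365 and 2149 reads in WT it had the most reads of the 6 genes. In both genotypes replicate 1 was above replicate 2 by more than counting error, 1.13-fold in 35S:TEM1 (95% interval 1.09 to 1.17) and 1.24-fold in WT (1.18 to 1.31). No gene overlaps BTS in the reference, and the closest, AT3G18291, lies 21 bases away on the opposite strand and is listed at 0 in all 4 samples.

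BTSL1 (AT1G74770) and BTSL2 (AT1G18910), both on chromosome 1, are known to act in the outer layers of the root. BTSL1 had 2.34 and 2.11 RPKM in 35S:TEM1, against 0.657 and 0.668 RPKM in WT. The means of 2.22 ± 0.160 RPKM in 35S:TEM1 and 0.663 ± 0.00835 RPKM in WT (SD, n = 2 each) differed 3.35-fold, the largest fold of the 3 ligase genes. Its log2 fold change was 0.95 ± 0.14 with the pseudocount of 1, which shrinks low values, 1.60 with a pseudocount of 0.1 and 1.73 in a voom fit on the recovered reads. BTSL1 thus ranked under BTS on the log2(RPKM + 1) scale, but above it in the fold of the mean RPKM and in the voom fit.

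BTSL2 had 3.56 and 3.32 RPKM in 35S:TEM1, against 2.18 and 2.12 RPKM in WT. The means of 3.44 ± 0.171 RPKM in 35S:TEM1 and 2.15 ± 0.0392 RPKM in WT (SD, n = 2 each) differed 1.60-fold, with a log2 fold change of 0.50 ± 0.12. It was the smallest difference of the 6, with 13.7% of genes tested at or above it. BTSL2 fell short of the threshold without any 1 of the 4 samples, with log2 fold changes of 0.46 to 0.53, and with equal sample medians (0.35) or quantile normalization (0.31). The values rest on 292 and 375 reads in 35S:TEM1 and 269 and 208 reads in WT.

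BTSL1 and BTSL2 have 75.9% of aligned coding bases in common, against 52.5% and 52.4% for BTS with BTSL1 and with BTSL2. No window of 50 exon bases is shared among the 3 ligase genes. Both BTSL genes overlap a pentatricopeptide repeat gene on the opposite strand, AT1G74750 at BTSL1 by 471 exon bases and AT1G18900 at BTSL2 by 139. AT1G74750 had 3.03 and 3.23 RPKM in 35S:TEM1, against 4.40 and 4.74 RPKM in WT, so it was more abundant than BTSL1 itself and lower in 35S:TEM1. AT1G18900 had 4.96 and 4.95 RPKM in 35S:TEM1, against 5.20 and 5.47 RPKM in WT. Strand handling is not given in the sources used here, and the part of these neighbours in the BTSL values was not tested. BTSL2 was 1.52-fold and 1.57-fold above BTSL1 in 35S:TEM1, and 3.31-fold and 3.17-fold above it in WT.

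Within each sample the order of levels, on the RPKM scale, was partly the same. In 35S:TEM1 it ran IMA2, IMA3, BTS, IMA1, BTSL2 and BTSL1 in both samples, with every step larger than the difference between the samples. In WT the order below the top was IMA1, BTSL2 and BTSL1 as well, but BTS, IMA2 and IMA3 stood close together, at 22.6 ± 3.46, 21.4 ± 0.933 and 19.5 ± 2.01 RPKM (SD, n = 2), and did not differ beyond their spread. BTS was first in WT replicate 1 and IMA2 in WT replicate 2. The IMA sum was 4.28-fold and 4.69-fold the BTS level in 35S:TEM1, and 2.18-fold and 2.26-fold the BTS level in WT. These are ratios of transcript levels and say nothing of peptide or protein amounts.

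**Figure D2:**
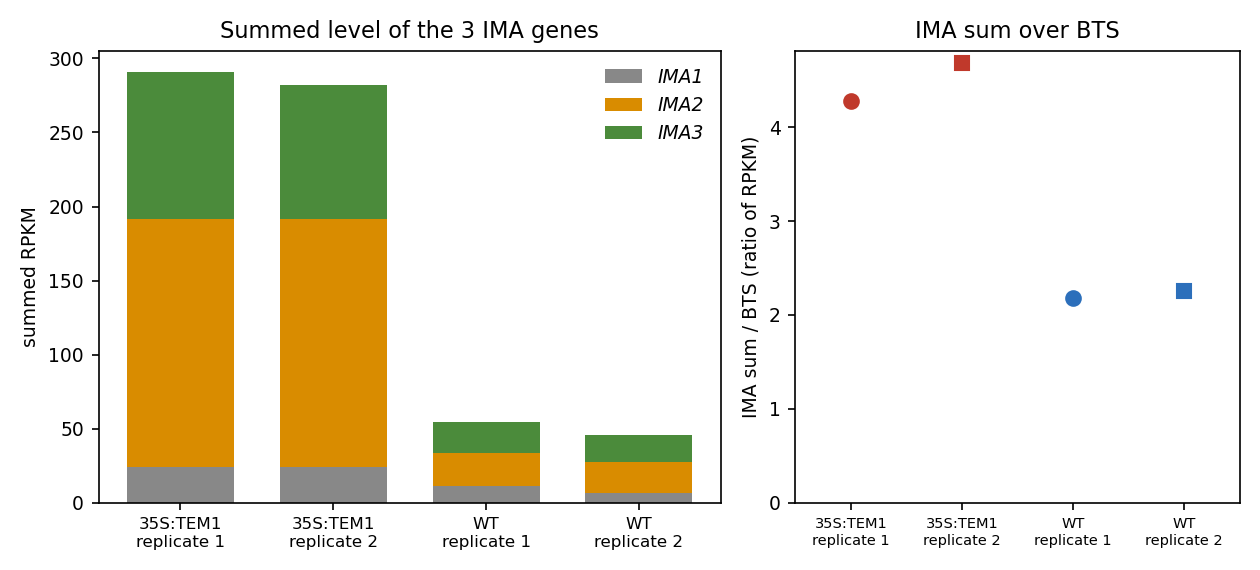
Left, RPKM of IMA1, IMA2 and IMA3 stacked in each sample, and right, the IMA sum divided by the RPKM of BTS, with 35S:TEM1 before WT in both panels. The sums are 291 and 282 RPKM in 35S:TEM1 against 54.6 and 45.6 RPKM in WT, and the ratios are 4.28 and 4.69 for 35S:TEM1 against 2.18 and 2.26 for WT.

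The promoters of BTS, IMA1 and IMA2 are shown, because BTS and the adjacent IMA genes differ in matches to the motifs marked below. Each is the 250 bases before the annotated gene start in RefSeq TAIR10.1, plus strand, 5′ to 3′, at chr3:6273716-6273965, chr1:17385457-17385706 and chr1:17382748-17382997. Capitals mark the G-box CACGTG, a bHLH site, and CAACA, a part of the element bound by RAV factors such as TEM1, read on both strands. CACGTG was the only bHLH site searched for, so other bHLH sites may be present in any of the promoters. These motifs do not overlap each other.
BTS: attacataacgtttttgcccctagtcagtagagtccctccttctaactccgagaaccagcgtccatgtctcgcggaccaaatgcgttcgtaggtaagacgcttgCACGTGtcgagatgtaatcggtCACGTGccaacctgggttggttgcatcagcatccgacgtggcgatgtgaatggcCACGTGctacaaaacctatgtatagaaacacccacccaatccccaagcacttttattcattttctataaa
IMA1: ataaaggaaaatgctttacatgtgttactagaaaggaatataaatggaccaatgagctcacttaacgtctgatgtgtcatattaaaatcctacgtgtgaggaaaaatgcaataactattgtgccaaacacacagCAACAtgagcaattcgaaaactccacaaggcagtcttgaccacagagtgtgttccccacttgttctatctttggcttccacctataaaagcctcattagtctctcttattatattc
IMA2: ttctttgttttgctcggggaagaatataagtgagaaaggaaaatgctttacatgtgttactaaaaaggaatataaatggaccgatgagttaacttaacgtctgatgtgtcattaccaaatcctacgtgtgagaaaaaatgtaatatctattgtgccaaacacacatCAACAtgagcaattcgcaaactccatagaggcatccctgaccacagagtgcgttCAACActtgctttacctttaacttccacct
The BTS promoter holds 3 matches to CACGTG, starting 146, 124 and 70 bases before the gene start. Of 27443 promoters of protein-coding genes of the same length, 6.49% hold at least 1 match and 27 hold at least 3. None of the 5 other promoters holds CACGTG in this window. CAACA has 1 match in IMA1, 2 in IMA2, 1 in IMA3 and 2 overlapping ones in BTSL2, with 0 in BTS and BTSL1, and 47.4% of all promoters hold it. CACCTG, the other part of the RAV element, has 0 matches in the 6 promoters and is held by 2.57% of all. The IMA1 and IMA2 promoters share 67.5% of aligned bases, and a match is a description of letters, not a binding site.

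**Figure D3:**
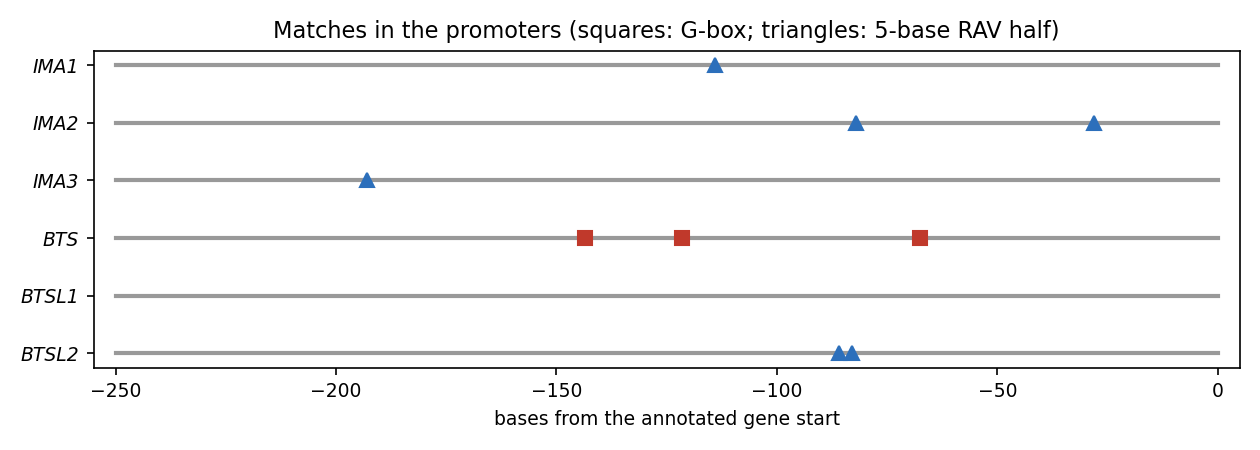
Matches to CACGTG (red squares) and CAACA (blue triangles) on either strand in the 250 bases before each annotated gene start, with the x axis in bases from the start. The 3 G-boxes of BTS, 146, 124 and 70 bases before the start, are the only ones among the 6 promoters.

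The other genes of the pathway were counted by role, in lists put together with earlier results of these data known. Counts are to be read beside the shares over all genes tested, 18.3% called higher and 7.37% called lower. The first list holds the bHLH factors of subgroup IVc, among which are known targets of BTS, and their partner bHLH121. Of 5 tested, 2 were higher, 0 lower and 3 not called, with a median log2 fold change of 0.21 against 0.12 for all genes tested. BHLH115 (AT1G51070) had 63.1 and 64.2 RPKM in 35S:TEM1, against 46.3 and 47.9 RPKM in WT (log2 fold change 0.43 ± 0.08, limma adjusted p = 0.0109). BHLH34 (AT3G23210) rose by 0.47 ± 0.11 (adjusted p = 0.0290), and both calls were lost when either 35S:TEM1 replicate 1 or 35S:TEM1 replicate 2 was left out, while that of BHLH34 was also lost without WT replicate 1, with equal sample medians, with quantile normalization and with no filter on low values. ILR3 (0.21, adjusted p = 0.115), BHLH104 (0.18, adjusted p = 0.222) and BHLH121 (0.12, adjusted p = 0.586) did not pass. The ligase genes themselves had log2 fold changes of 0.50 to 1.47, and the difference between the lists was not tested.

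The second list holds PYE, FIT and the subgroup Ib genes. Of 6 tested, 5 were higher, 0 lower and 1 not called, with a median log2 fold change of 2.40. BHLH38 (AT3G56970) had 38.6 and 38.5 RPKM in 35S:TEM1, against 2.77 and 1.27 RPKM in WT (log2 fold change 3.75 ± 0.23, limma adjusted p = 0.000378). BHLH39 (AT3G56980) had 36.2 and 31.6 RPKM in 35S:TEM1, against 3.24 and 0.934 RPKM in WT. BHLH100 (AT2G41240) had 40.2 and 41.4 RPKM in 35S:TEM1, against 7.44 and 2.45 RPKM in WT (log2 fold change 2.95 ± 0.38, adjusted p = 0.00377). All 4 subgroup Ib genes stood higher in WT replicate 1 than in WT replicate 2, as did each of the 6 genes except BTSL1. PYE (AT3G47640), a repressor that partners with ILR3, rose by 1.41 ± 0.09 (adjusted p = 0.000476), close to BTS in size. FIT (AT2G28160), the master regulator of root iron uptake and a known target of BTSL1 and BTSL2, had 2.65 and 2.81 RPKM in 35S:TEM1, against 2.15 and 2.89 RPKM in WT (0.09, adjusted p = 0.670).

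Of 9 tested genes of root iron acquisition, 5 were higher, 0 lower and 4 not called, with a median log2 fold change of 0.42. The 4 not called were F6'H1 (0.42), AT3G12900 (0.25), CYP82C4 (-0.15) and BGLU42 (-0.02). AHA2 was called higher (0.42, limma adjusted p = 0.0228), but did not pass with equal sample medians (adjusted p = 0.0832). The ferric reductase gene FRO2 rose by 1.32 ± 0.11 (adjusted p = 0.000964), the iron transporter gene IRT1 by 1.14 ± 0.13 (adjusted p = 0.00262) and MYB10 by 1.26 ± 0.20 (adjusted p = 0.00798). ABCG37, an exporter of phenolic compounds, rose by 0.68 ± 0.14 (adjusted p = 0.0182). The list's median was 0.36 without 35S:TEM1 replicate 1. At a mean RPKM of at least 5 only IRT1, AHA2 and BGLU42 were tested, and IRT1 and AHA2 were called higher. ABCG37 did not pass with 35S:TEM1 replicate 1 left out, nor with quantile normalization. Among 11 tested genes of iron transport and nicotianamine synthesis 9 were higher, 1 lower and 1 not called. FRO3, a mitochondrial ferric reductase gene, rose by 2.07 ± 0.15 (adjusted p = 0.000595), ZIF1, a vacuolar nicotianamine transporter gene, by 1.94 ± 0.12 (adjusted p = 0.000366), the phloem iron transporter gene OPT3 by 1.53 ± 0.09 (adjusted p = 0.000356) and NRAMP4 by 1.19 ± 0.13 (adjusted p = 0.00230). The lower gene was NAS4, a nicotianamine synthase gene, with 11.9 ± 1.52 RPKM in 35S:TEM1 and 26.7 ± 1.26 RPKM in WT (SD, n = 2 each; log2 fold change -1.10 ± 0.11, limma adjusted p = 0.0017), and 2 of the list were lower without WT replicate 1.

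Among iron storage genes, 2 ferritin genes fell. Of 6 tested, 2 were lower, 1 higher and 3 not called, with a median of -0.15. The ferritin gene FER4 fell by 0.65 ± 0.11 on the log2 scale (adjusted p = 0.00904), and FER3 fell by 0.48 ± 0.11 (adjusted p = 0.0218). FER1 had 14.7 and 20.9 RPKM in 35S:TEM1, against 24.3 and 28.6 RPKM in WT (-0.56, adjusted p = 0.0568), and passed with equal sample medians (adjusted p = 0.0402). The vacuolar transporter-like gene VTL5 rose by 0.69 ± 0.19 (adjusted p = 0.0443), a call lost in 7 settings, among them equal sample medians and leaving out 35S:TEM1 replicate 1, 35S:TEM1 replicate 2 or WT replicate 1. Without 35S:TEM1 replicate 1, 0 of the ferritin genes passed, and without WT replicate 2 FER3 did not (-0.39, adjusted p = 0.0505). The lower storage genes numbered 3 with equal sample medians, quantile normalization or voom, and when 35S:TEM1 replicate 2 or WT replicate 1 was left out. The list's median was 0.05 when WT replicate 2 was left out.

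**Figure D4:**
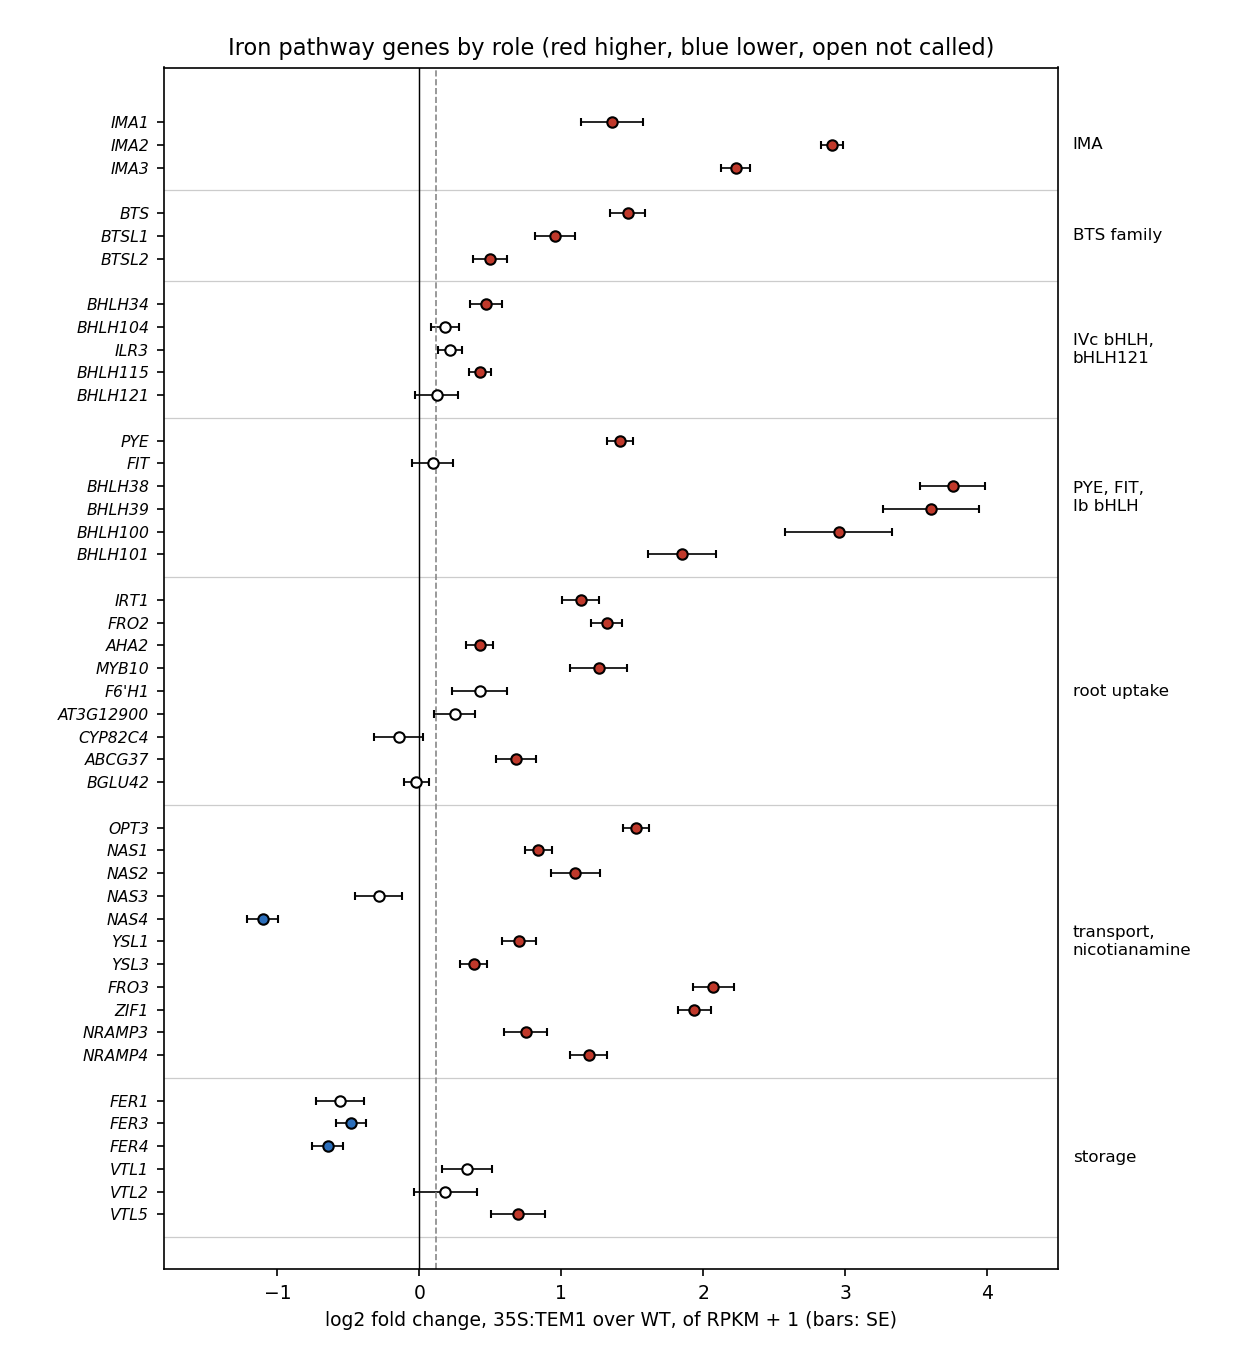
Log2 fold change of RPKM + 1, 35S:TEM1 over WT, with SE bars, for the tested genes of 7 lists ordered by role; red points were called higher, blue points lower and open points not called, and the dashed line is the median of all genes tested. The subgroup IVc genes and BHLH121 lie between 0.12 and 0.47, the subgroup Ib genes between 1.85 and 3.75, and the ferritin genes below 0.

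RING proteins with the same CHY zinc finger but no hemerythrin domain served as relatives of the ligases. Of 4 tested, 1 was higher, 1 lower and 2 not called, against 18.3% higher and 7.37% lower over all genes. CHYR1 (AT5G22920), known from drought response, had 18.8 and 20.2 RPKM in 35S:TEM1, against 58.8 and 41.9 RPKM in WT (-1.31 ± 0.16, adjusted p = 0.00325). AT5G25560 rose by 0.56 ± 0.09 (adjusted p = 0.00786), but did not pass with 35S:TEM1 replicate 1 left out. With WT replicate 2 left out, 2 of the 4 were lower. Of 4 bHLH factors of subgroup IVa, which are known to promote degradation of FIT, only BHLH20 was tested, with 5.68 and 3.65 RPKM in 35S:TEM1 against 5.09 and 4.11 RPKM in WT (0.00, adjusted p = 0.996).

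Markers of root tissue, where BTSL1, BTSL2 and part of the IMA and BTS transcripts are known to be made, were higher in the same samples. All 9 of the 12 root markers that were tested were called higher, against 18.3% of all genes, with a median log2 fold change of 0.90. CASP2, PRP3, EXPA7 and WOX5 reached the expression limit only through 35S:TEM1, so the count leans on that filter. Their WT means were 0.555, 0.845, 0.356 and 0.555 RPKM. At a mean RPKM of at least 5 only SCR, PHO1 and SHR were tested, and all 3 were called higher. The median was 1.55 with a pseudocount of 0.1 and 0.84 without 35S:TEM1 replicate 2. The summed level of the 12 root markers was 85.8 and 91.8 RPKM in 35S:TEM1, and 38.2 and 41.0 RPKM in WT, a 2.24-fold difference. None of the 12 was listed at 0 in all samples. SCR, PHO1 and SHR held the largest parts of the sum. Their means were 30.2, 23.4 and 15.1 RPKM in 35S:TEM1, against 17.9, 6.31 and 8.49 RPKM in WT. Of 6 phloem markers 2 were lower and 0 higher, and 1 was lower when 35S:TEM1 replicate 1, 35S:TEM1 replicate 2 or WT replicate 2 was left out, with sums of 159 and 161 RPKM in 35S:TEM1 against 182 and 209 RPKM in WT. Of 9 markers of the leaf epidermis and of guard cells 3 were lower and 0 higher, with sums of 263 and 280 RPKM in 35S:TEM1 against 414 and 367 RPKM in WT, and 1 was lower without 35S:TEM1 replicate 1. Of 6 markers of photosynthetic leaf cells 2 were lower and 1 higher, and 0 were lower when either 35S:TEM1 replicate was left out, or 1 when WT replicate 2 was. The lower count was also 0 with quantile normalization, where the median log2 fold change was -0.03 in place of -0.23, and 0 with no filter, but 3 with equal sample medians. Their sums were 31775 and 35778 RPKM in 35S:TEM1 against 39919 and 41181 RPKM in WT. RBCS1A, which was not called, held most of these sums, with 18714 and 22702 RPKM in 35S:TEM1 against 24583 and 25557 RPKM in WT. PDF1, called lower, held most of the sums of the leaf epidermis and guard cell list. It had 178 and 205 RPKM in 35S:TEM1 against 308 and 279 RPKM in WT. The part of tissue make-up in the IMA, BTS and BTSL values was not tested.

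The genes with the most similar profiles over the 4 samples were found by the smallest Euclidean distance between log2(RPKM + 1) values after each gene's mean was subtracted. For IMA2 they were the stress-induced membrane protein gene TSPO, with a distance of 0.0931, the lipid transfer protein gene LTP2 (0.0948) and AT4G23680 of the polyketide cyclase family (0.138). For IMA3 they were AT4G38340 of the RWP-RK family (0.137), the chloroplast membrane protein gene COR413IM1 (0.180) and FRO3 (0.204). For IMA1 they were the non-coding RNA AT5G38005 (0.109), AT5G48490 of the lipid-transfer family (0.117) and AT2G21180 of unknown function (0.137). BTS stood nearest to the non-coding RNA AT3G57157 (0.0998), the gamma-glutamyl hydrolase gene GGH2 (0.104) and CYP71B36 (0.106). Among the 6 genes themselves, the smallest distance was that of BTS and IMA1 (0.336), the largest that of IMA2 and BTSL2 (2.41), and IMA1 and its neighbour IMA2 stood 1.61 apart. The profile of BTSL1 was nearest to NCS1 (0.0382), ROT3 (0.0408) and AT3G22810 (0.0435), and that of BTSL2 to AT2G14255 (0.0135), AT5G65740 (0.0192) and AT1G53780 (0.0252). The pseudocount of 1 shrinks low values, so a near profile need not have a like fold of RPKM. TSPO had 9.73 and 9.13 RPKM in 35S:TEM1, against 0.346 and 0.317 RPKM in WT. NCS1 had 40.9 and 38.6 RPKM in 35S:TEM1, against 20.6 and 20.2 RPKM in WT. With 4 samples and 17746 genes many profiles lie close together, and no shared role is read from these distances.

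**Figure D5:**
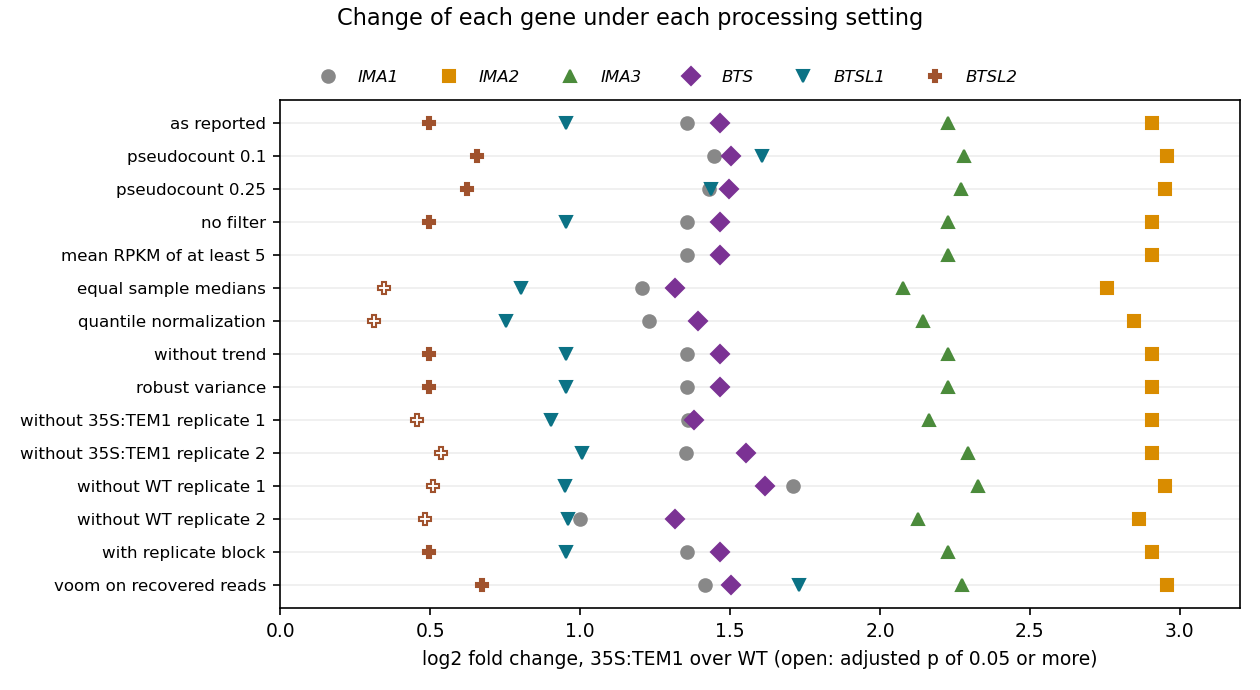
Log2 fold change of each gene, 35S:TEM1 over WT, under the reported setting and 14 others, with open symbols where the adjusted p was 0.05 or more; BTSL1 and BTSL2 have no point at a mean RPKM of at least 5. IMA2 stays between 2.76 and 2.96 and IMA3 between 2.08 and 2.33, IMA1 runs from 1.0 to 1.71, and the open symbols are all of BTSL2.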

How the data were processed

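Total RNA of 4 samples, 2 of 35S:TEM1 and 2 of WT, was DNase-treated and sequenced, per the labels' protocols. Cuffdiff 2.2.1, STAR, FastQC, bcl2fastq 1.8.4 and the build TAIR10 appear, with no role, in the submitters' processing notes. No source used here gives the counting tool, annotation, strand setting or read filters. The authors deposited 1 table of RPKM values for 32678 loci.

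The RPKM ratios between samples are ratios of whole reads: for 24298 of 24315 loci above 0 (99.9%) they came out whole within 1e-10. Reference gene lengths, met exactly by 1242 loci, then gave the library totals. Reads are the smallest whole numbers that also give a whole gene length, as for all 6 genes here, with a larger common factor where that met the reference length or the length was under 100 bases. Intervals from reads (95%) cover counting error only. Because the table holds RPKM, the reads served only for intervals and an added alternative, voom.

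Values were tested as log2(RPKM + 1) with limma 3.58.1 in R 4.3.3 (mean-variance trend, 2-sided, Benjamini-Hochberg over 17746 genes with a mean RPKM of at least 1, adjusted p under 0.05). In simulated data for this comparison, 98 of 100 genes changed by 1 and 100 of 100 changed by 2 on the log2 scale were recovered among 17746 genes, with 15 false calls. Alternatives were other pseudocounts, filters, normalizations and variance models, each sample left out, and a replicate block. Gene names and sequences came from RefSeq TAIR10.1, which held 31912 loci (97.7%). The names of the IMA and BTSL genes follow common usage. TAIR10.1 is a later release of the build the submitters name, the table holds no coordinates, and none were converted.

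The genes and lists were chosen with earlier results of these data known. Named genes follow a rule: the 6 genes, TEM1, genes that overlap or adjoin them, the 3 nearest profiles of each, and in each pathway list up to 4 called genes with the largest change and uncalled genes in the ligases' own pathway. NAS2, NAS4, PYE, FER1, BHLH20 and AHA2 were added after their values were seen. So were the uncalled root acquisition genes and the root and leaf markers named singly.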

Additional observations from a re-analysis of the deposited data

How the results depend on the processing

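The genes were picked with this contrast known, so their values across settings are a description. IMA1, IMA2, IMA3 and BTS lay past the threshold in 15 of 15 settings and BTSL1, which its 35S:TEM1 values carry past the filter, in 14 of 14. BTSL2 did so in 8 of 14. Over the settings BTS ran from 1.32 to 1.62, BTSL1 from 0.75 to 1.73 and BTSL2 from 0.31 to 0.67. Over all genes, 1884 were higher and 2388 lower with equal sample medians, and 2021 higher with quantile normalization (1862 lower). Without 1 sample the higher genes numbered 1331 to 2955 and the lower 545 to 1417, fewest without 35S:TEM1 replicate 1 in both directions. The cause of these shifts was not tested. The members called higher numbered 5 without any 1 sample, 5 with either rescaling of the samples, and 4 of the 4 tested at a mean RPKM of at least 5. Same-numbered samples deviated together across genes (Pearson r = 0.318), but the labels give the numbers no meaning beyond a name. With replicate number as a block, 4321 genes were higher and 1801 lower, all 6 members were higher, and 3 iron storage genes were lower. The voom fit was chosen after seeing the data and called 3626 higher and 1407 lower. Depth limits BTSL1 in WT most, with 78 and 63 reads.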
